A study of Mus musculus with 18 samples.

Results

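The oxygen response of gesicle-treated mouse tail tendon fibroblasts (TFs) was measured in 6 of the 18 RNA-seq libraries of the series, chosen by their titles: 3 of Ctrl TFs with Cre gesicles in 1% O2 and 3 of Ctrl TFs with Cre gesicles in 20% O2. All were kept at their O2 level for 4 days. The other 12 libraries were Ctrl and cKO TFs without gesicles at the same O2 levels, with 3 per group. They are used here for comparison and entered the same fit, so they also shaped its filter, normalisation and estimate of spread. With only the 6 gesicle-treated libraries fitted, 120 genes were called instead of 390. The labels give the Ctrl cells as wild-type and the cKO cells as Hif1a knockout. Per the study's text the cKO mice were Scleraxis-Cre Hif1a fl/fl, in which Cre is driven by Scleraxis, a gene of the tendon lineage. Its culture methods give the Ctrl TFs as Cre-negative, and its mouse methods give Cre-negative Ctrl mice as Hif1a fl/fl, so the label wild-type stands beside floxed alleles. Gesicles are vesicles shed by producer cells that carry a protein, here Cre recombinase, into the cells they fuse with, and the design text gives them as a parallel way to knock down Hif1a in culture. The TFs grew out of tail tendons through a collagen gel and were then passaged, so they are cultured cells and not tendon. The labels do not tie libraries to mice. By the counts of Xist and the Y-linked gene Ddx3y, replicate 1 came from a male and replicates 2 and 3 from females at both O2 levels, so each group holds cells of at least 2 mice, and whether replicates 2 and 3 were separate mice is not given in the labels. The p-values measure a spread between libraries that was estimated over all 18 libraries, and not over these 6 alone.

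Cells sense oxygen through prolyl hydroxylases (Egln1, Egln2 and Egln3), which use oxygen to mark the HIF alpha subunits for destruction, and through Hif1an, which blocks their activity in transcription. When oxygen falls, HIF-1alpha (Hif1a) and HIF-2alpha (Epas1) escape this control, pair with Arnt and bind hypoxia-response elements beside their target genes. The best known targets move glucose through glycolysis to lactate, hold pyruvate back from the mitochondria and exchange or remove parts of the respiratory chain. Much of this control acts on HIF protein, and only RNA was measured here.

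The core of a hypoxia-response element is ACGTG or GCGTG. The 250 bases before the annotated start are printed for 6 genes that rose in 1% O2 in gesicle-treated TFs, as examples. They are from RefSeq for GRCm38.p6, 5′ to 3′, with capitals marking every ACGTG and GCGTG and their reverse complements CACGT and CACGC.
Slc16a3, chr11:120948817-120949066, forward strand: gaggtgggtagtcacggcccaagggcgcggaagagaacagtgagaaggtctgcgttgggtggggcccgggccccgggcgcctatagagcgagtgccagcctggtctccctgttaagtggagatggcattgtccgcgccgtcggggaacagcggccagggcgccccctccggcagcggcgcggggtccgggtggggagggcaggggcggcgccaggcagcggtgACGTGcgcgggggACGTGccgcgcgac
Mgarp, chr3:51396548-51396797, reverse strand: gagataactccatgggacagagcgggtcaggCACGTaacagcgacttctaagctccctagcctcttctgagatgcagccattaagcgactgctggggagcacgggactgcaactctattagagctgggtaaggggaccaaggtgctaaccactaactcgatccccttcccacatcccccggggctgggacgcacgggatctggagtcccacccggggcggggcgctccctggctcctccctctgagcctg
Ankrd37, chr8:45999851-46000100, reverse strand: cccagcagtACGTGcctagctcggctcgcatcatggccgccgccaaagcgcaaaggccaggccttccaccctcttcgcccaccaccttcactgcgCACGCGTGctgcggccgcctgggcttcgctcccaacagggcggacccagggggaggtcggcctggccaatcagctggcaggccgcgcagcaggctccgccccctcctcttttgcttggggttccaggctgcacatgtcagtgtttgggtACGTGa
Bnip3, chr7:138909507-138909756, reverse strand: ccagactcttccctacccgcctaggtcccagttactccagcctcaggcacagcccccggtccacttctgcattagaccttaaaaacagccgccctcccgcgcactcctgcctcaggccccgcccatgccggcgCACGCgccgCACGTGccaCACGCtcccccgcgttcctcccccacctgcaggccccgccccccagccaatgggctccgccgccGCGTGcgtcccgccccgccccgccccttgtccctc
Pdk1, chr2:71872974-71873223, forward strand: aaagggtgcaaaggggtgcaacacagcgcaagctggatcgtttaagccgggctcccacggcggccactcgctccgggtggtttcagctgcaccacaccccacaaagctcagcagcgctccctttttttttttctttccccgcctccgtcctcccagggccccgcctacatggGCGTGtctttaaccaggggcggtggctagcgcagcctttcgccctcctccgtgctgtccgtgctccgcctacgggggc
Ldha, chr7:46845554-46845803, forward strand: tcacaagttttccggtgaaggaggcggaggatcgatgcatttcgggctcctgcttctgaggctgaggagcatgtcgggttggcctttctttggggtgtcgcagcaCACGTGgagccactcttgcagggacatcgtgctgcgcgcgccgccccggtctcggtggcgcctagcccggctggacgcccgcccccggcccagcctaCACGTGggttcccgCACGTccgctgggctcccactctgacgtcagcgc
The windows held 2, 1, 4, 5, 1 and 5 cores in this order, and some overlap, as in CACGTG, which reads as a core on both strands. The core nearest to the start lay 14 bases before it in Slc16a3, 6 in Ankrd37 and 34 in Ldha. For Pdk1 and Ldha the first of 2 listed windows is shown. The genes shown are not the largest rises in order, and Ndufa4l2 and Cox4i2 had no listed window. All of those shown held a core, so they do not stand for the called genes as a whole, whose share is given below. The RefSeq start used for Slc16a3 lies inside the span that GENCODE gives the gene. Cores were common elsewhere too. Of 27025 genes with a window, 38.6% had at least 1 core in the first window listed, and of 11215 genes tested here with a window, 55.7% did. Of the 204 genes with a window that were called higher in 1% O2, 56.9% held a core, and of the 88 called lower, 48.9% did. The share was 69.2% of 26 genes of glycolysis and 78.3% of 23 other HIF targets. A match describes the letters and is not a binding site.

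The total count ranged from 44011967 to 51806453 per library in 20% O2 and from 32146235 to 35280121 in 1% O2, so the mean total in 20% was 1.38 times that in 1% O2. Levels are given as CPM, a library's counts scaled to a common total with TMM normalisation, and 3 counts correspond to 0.0579 to 0.0682 CPM in 20% and 0.085 to 0.0933 CPM in 1% O2, for counting error only. All 10 tendon fibroblast markers were measured, with a summed level of 10100 to 16400 CPM in 20% and 8810 to 16300 CPM in 1% O2. Macrophage and leukocyte markers summed to at most 36.7 CPM, chondrocyte markers to 49 CPM, skeletal muscle markers to 36.1 CPM with Myod1, Ckm, Pax7 and Myh3 at 0 counts, Schwann cell markers to 17.4 CPM, adipocyte markers to 4.56 CPM with Adipoq and Lep at 0, endothelial markers to 0.815 CPM with Tie1 and Emcn at 0, and keratinocyte markers to 0.521 CPM. Pericyte and smooth muscle markers summed to 61.2 to 139 CPM in 20% and 58.8 to 93.1 CPM in 1% O2. Of the marker genes, chosen here after their values were seen, Rgs5 of pericytes rose from 9.59, 5.73 and 7.85 CPM to 23.3, 13.5 and 12.6 CPM (1.09 ± 0.24, adjusted p = 0.0235), and Kdr of endothelium had 18, 25 and 20 counts in 20% and 0, 0 and 2 counts in 1% O2. Rgs5 was the 1 called gene of the 6 in its list, whose sums overlapped between O2 levels. The part of other cells in the results was not tested.

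In gesicle-treated TFs, 1 library stood apart. Replicate 2 in 1% O2 had the lowest level of the 6 libraries for all 33 interferon-stimulated genes measured. Their summed level was 4510, 7900 and 5830 CPM in 20% O2 and 3750, 374 and 2380 CPM in 1% O2, and it was 316 to 2110 CPM in the 12 libraries without gesicles. Counts of changed genes are therefore also given without this library. Whether its label is right was not tested, and if it is not, every value of the 1% O2 group is affected. Replicate 2 of Ctrl TFs without gesicles in 1% O2 was also from a female, and it had 0 counts of tdTomato, against 1 count in the gesicle-treated library. Gesicle-treated replicate 2 in 20% O2 also had 0, so counts this low cannot tell the labels apart.

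Hif1a (chr12:73901375-73947530, GRCm38), the gene that Cre gesicles were meant to act on, was at 347, 341 and 398 CPM in 20% and 394, 369.8 and 387 CPM in 1% O2 (0.08 ± 0.14, SE, n = 3 libraries per group, edgeR quasi-likelihood test with Benjamini-Hochberg adjusted p = 0.811), where the bracket gives the log2 fold change of 1% over 20% O2 with its standard error, as in the brackets that follow. The groups overlapped. In Ctrl TFs without gesicles it was 348 ± 19.6 CPM (SD, n = 3) in 20% and 419.7 ± 63.0 CPM in 1% O2. These are counts over the whole gene, which do not show whether a floxed exon was lost, so they are no check of the gesicle treatment. Among the partners and regulators of HIF, Epas1 (-0.56 ± 0.39, adjusted p = 0.491), Arnt (-0.11 ± 0.22, adjusted p = 0.835), Arnt2 (-0.64 ± 0.44, adjusted p = 0.481), Egln2 (-0.17 ± 0.15, adjusted p = 0.605) and Hif1an (-0.20 ± 0.40, adjusted p = 0.848) had overlapping groups and no call.

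Across 16174 genes tested, 390 (2.41%) were called in gesicle-treated TFs, meaning that 1% and 20% O2 differed with an edgeR adjusted p under 0.05 and at least 1.5-fold. Of these, 266 (1.64% of the genes tested) rose and 124 (0.767%) fell in 1% O2, and 359 were protein-coding. The median log2 fold change over all genes was -0.0196, and the 3 libraries of one O2 level did not overlap those of the other in 24% of genes. With counts thinned to the smallest of the 6 totals, 361 genes were called, 353 of them among the 390. The count was 188 without replicate 2 in 1% O2, 162 without replicate 3 in 1%, 148 without replicate 2 in 20% and 207 without replicate 3 in 20%, and 346 and 319 without replicate 1 in 1% and in 20% O2. In all 6 of these fits, which each left out 1 library, 90 of the 266 higher and 24 of the 124 lower genes were called. Lists are counted over members that passed the filter on low counts. They were written with earlier results of these data known, so their counts are a description, to be read beside the 1.64% higher and 0.767% lower over all genes. In bulk RNA, fewer cells of a type and less RNA per cell cannot be told apart.

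**Figure D1:**
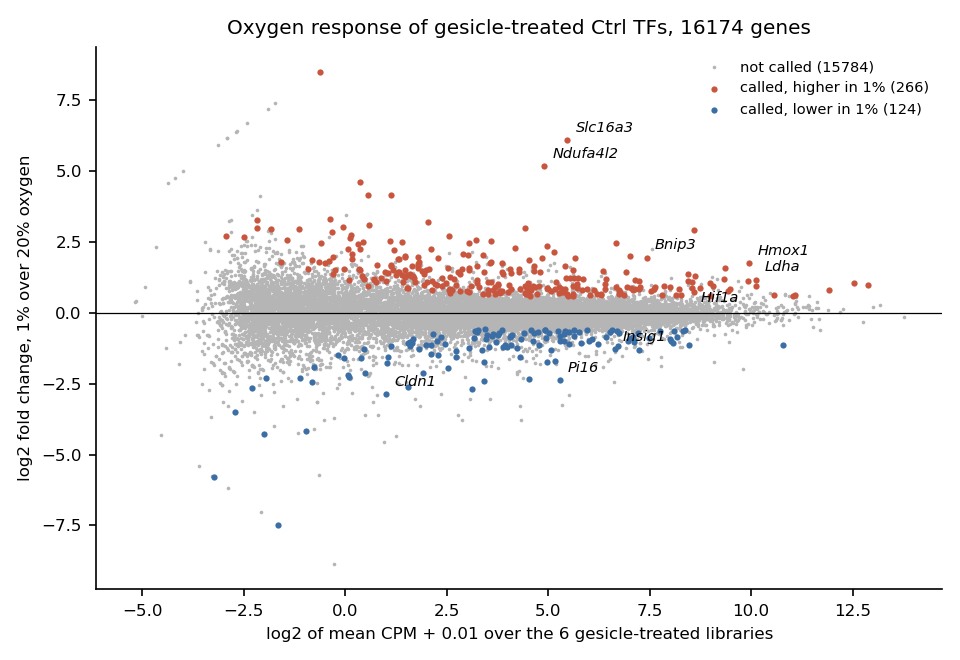
Each point is 1 of 16174 genes, by its mean level in the gesicle-treated libraries (x axis, log2 scale) and its log2 fold change of 1% over 20% O2 (y axis), with genes called higher (266) and lower (124) in colour and the rest in grey. Rises reach further from 0 than falls among well-expressed genes, led by Slc16a3 at 6.10 and Ndufa4l2 at 5.18.

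The largest rises were in lactate export and in mitochondrial proteins. Slc16a3 (chr11:120948480-120960868), the lactate exporter MCT4, rose from 1.39, 1.11 and 1.3 CPM to 97.7, 98.4 and 65.4 CPM (6.10 ± 0.28, adjusted p = 6.05e-09), which is 68.6-fold. Ndufa4l2 (chr10:127514967-127517154), a HIF target that lowers complex I activity, rose from 2.23, 1.20 and 1.40 CPM to 50.7, 57.4 and 66.5 CPM (5.18 ± 0.31, adjusted p = 1.07e-07), which is 36.2-fold. Every 1% library of both genes lay more than an order of magnitude above every 20% library. Cox4i2, the isoform of cytochrome c oxidase subunit 4 used in low oxygen, rose from 0.278, 0.113 and 0.0789 CPM to 2.53, 2.36 and 3.46 CPM (4.14 ± 0.63, adjusted p = 0.00181). Mgarp, a mitochondrial outer membrane protein, rose from 0.139, 0.136 and 0.0197 CPM to 2.53, 2.94 and 1.87 CPM (4.63 ± 0.56, adjusted p = 0.000243). In 20% O2, Cox4i2 had 12, 5 and 4 counts and Mgarp 6, 6 and 1, near or under the floor of 3 counts. The size of both rises is therefore uncertain. Ankrd37, an ankyrin repeat protein and HIF target, rose from 0.881, 0.928 and 0.631 CPM to 6.07, 7.89 and 8.31 CPM (3.19 ± 0.39, adjusted p = 0.000283). These 5 genes kept their calls with any 1 of the 6 libraries left out.

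The other 5 of the 10 largest rises also had groups that did not overlap and stayed rises in every fit. Their calls, though, were lost in some of the fits that left out 1 library. Ces1f, a carboxylesterase, rose from 0.0927, 0.226 and 0.355 CPM to 2.82, 4.4 and 5.15 CPM (4.15 ± 0.79, adjusted p = 0.00932), and lost its call without replicate 2 in 20% O2 (adjusted p = 0.0583). Derl3, which acts in the disposal of misfolded proteins, rose from 0.162, 0.113 and 0.335 CPM to 1.16, 2.04 and 1.96 CPM (3.04 ± 0.72, adjusted p = 0.0342), and lost its call in 5 of the 6 fits, in all but the one without replicate 1 in 1% O2 (adjusted p of up to 0.167). The antisense genes Gm14964 (3.32 ± 0.69, adjusted p = 0.0158) and Gm12002 (3.08 ± 0.62, adjusted p = 0.0133) each lost theirs in 3 fits (up to 0.101 and 0.0896), and reads of an antisense gene and its partner cannot be told apart where the counting is not stated to use strand. The processed pseudogene Gm8226 had 0 counts in each 20% library and 46, 32 and 48 counts in 1% O2, at least 18.2-fold higher against a floor of 3 counts per library. It lost its call in 4 fits (up to 0.0852), had 42 to 62 counts in the 6 Ctrl libraries without gesicles, and may share reads with near-identical copies, so its value is uncertain.

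**Figure D2:**
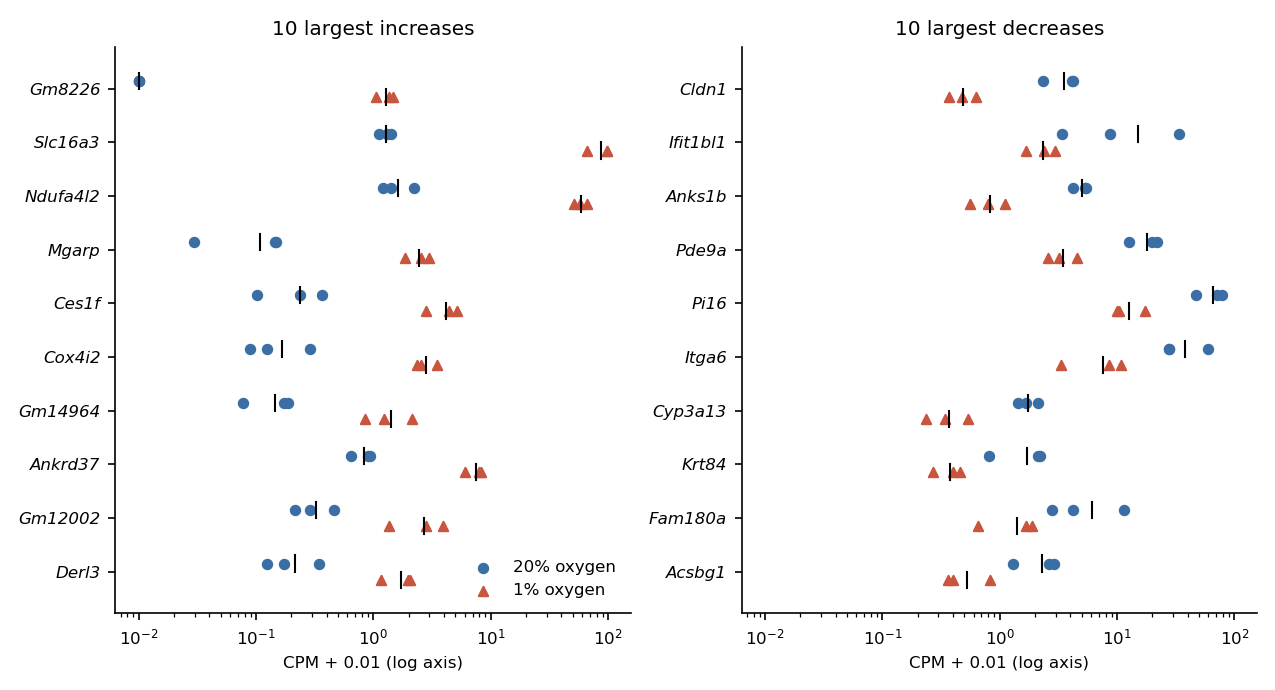
Normalised CPM (log axis) in each gesicle-treated library for the 10 genes with the largest rise and the 10 with the largest fall in 1% O2 among called genes, with the 3 libraries in 20% O2 and the 3 in 1% O2 marked apart. Slc16a3 moves from 1.11 to 1.39 CPM in 20% O2 to 65.4 to 98.4 CPM in 1% O2.

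Glycolysis rose from phosphofructokinase to the export of lactate. Of 28 genes in the list, 10 were called higher and 0 lower, with a median log2 fold change of 0.547, and the summed level was 8720, 8330 and 7070 CPM in 20% and 13700, 12900 and 13300 CPM in 1% O2. Pfkl, the liver-type subunit of phosphofructokinase, which commits glucose to glycolysis, rose from 54.7, 55.8 and 45.2 CPM to 217, 215 and 191 CPM (2.0 ± 0.12, adjusted p = 1.07e-07). Ldha, which turns pyruvate into lactate, rose from 713, 773 and 570.4 CPM to 1621, 1545 and 1477 CPM (1.17 ± 0.17, adjusted p = 0.00115). Aldoa, the aldolase that splits fructose bisphosphate, rose from 688, 588 and 561 CPM to 1285, 1317 and 1405 CPM (1.13 ± 0.16, adjusted p = 0.00101). In these 3 genes every 1% library lay above every 20% library, and the calls held with any 1 library left out. The other called members were Slc16a3, Pfkfb3, Aldoc, Tpi1, Pgk1, Pgam1 and Eno1. Without replicate 2 in 1% O2 the list had 7 called genes, and without replicate 2 or replicate 3 in 20% O2 it had 6 each.

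Of 34 HIF targets outside glycolysis, 12 rose and 0 fell, against 1.64% and 0.767% of all genes tested. The median log2 fold change of the list was 0.553. Bnip3, a receptor for the removal of mitochondria, rose from 78.2, 61.9 and 72.1 CPM to 233, 287 and 298 CPM (1.95 ± 0.19, adjusted p = 5.01e-05). P4ha1, a catalytic subunit of collagen prolyl 4-hydroxylase, rose from 251, 256 and 287 CPM to 490.3, 506 and 459 CPM (0.88 ± 0.10, adjusted p = 0.000102). Selenbp1, a selenium-binding protein, rose from 2.55, 1.79 and 3.75 CPM to 12.7, 15.4 and 20.1 CPM (2.57 ± 0.29, adjusted p = 0.000144). The O2 groups of these 3 genes did not overlap, and the calls held with any 1 library left out. The number called was 7 without replicate 2 in 20% O2, 8 without replicate 3 in 1% O2 and 9 without replicate 2 in 1% O2. Also called were Ndufa4l2, Ankrd37, Car9, Adm, Fam162a, Higd1a, Ak4, Egln1 and Egln3.

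Egln1 and Egln3 are sensors that are themselves HIF targets and feed back on the pathway. Egln1 (PHD2) rose from 45.4, 49.6 and 60.3 CPM to 77.3, 86.6 and 74.7 CPM (0.62 ± 0.12, adjusted p = 0.011), and Egln3 (PHD3) rose from 1.74, 0.611 and 0.710 CPM to 3.83, 2.78 and 3.31 CPM (1.70 ± 0.37, adjusted p = 0.0198). Neither had overlapping groups. Egln1 lost its call without replicate 1 or 2 in 20% or replicate 2 in 1% O2, with an adjusted p of at most 0.0699, and Egln3 without replicate 2 or 3 in 20% or replicate 1 or 3 in 1% O2, at most 0.116. The genes that the study measured by qPCR were not called. That qPCR was of Ctrl and cKO TFs after 1 week in culture, and not of gesicle-treated TFs after 4 days, so the 2 are not like for like. Hilpda, a lipid droplet protein and HIF target, was at 14.9, 11.5 and 14.1 CPM in 20% and 15.3, 15.5 and 20.1 CPM in 1% O2 (0.33 ± 0.18, adjusted p = 0.361). Ccn3, a matricellular protein, was at 216, 209 and 276 CPM in 20% and 125, 149 and 189 CPM in 1% O2 (-0.60 ± 0.31, adjusted p = 0.331), and neither gene's groups overlapped. Scx, the tendon transcription factor Scleraxis, was at 16.0, 16.1 and 8.21 CPM in 20% and 10.5, 15.1 and 8.76 CPM in 1% O2 (-0.23 ± 0.41, adjusted p = 0.823) with overlap.

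At the entry of pyruvate to the mitochondria 1 kinase rose. Pdk1, which inactivates pyruvate dehydrogenase, rose from 12.3, 15.2 and 11.9 CPM to 57.8, 68.6 and 46.1 CPM (2.13 ± 0.19, adjusted p = 1.53e-05), and held with any 1 library left out. It was the 1 called gene of 13 for the complex and its kinases, where Pdk2 had 0.36 ± 0.14, adjusted p = 0.176. Of 16 citric acid cycle genes 0 were called, with a median of -0.0696. Suclg2 (-0.40 ± 0.10, adjusted p = 0.041) and Dlst (-0.32 ± 0.08, adjusted p = 0.0447), enzyme subunits of the cycle, were under the fold minimum. Cox4i2 was the 1 called gene of 72 measured of 73 nuclear respiratory chain and ATP synthase subunits, whose median was 0.0277, with the complex I subunit Ndufa3 at 0.43 ± 0.19, adjusted p = 0.262. Of 13 mitochondrial genome transcripts 0 were called, with mt-Co1 at 0.37 ± 0.22, adjusted p = 0.412 and mt-Nd4l at 0.88 ± 0.48, adjusted p = 0.368.

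Glycogen genes rose on the side of synthesis and of breakdown. Of 16, 4 were called higher and 0 lower, and 2 were called higher without replicate 2 in 20% O2. Gbe1, the branching enzyme, rose from 35.8, 30.5 and 38.5 CPM to 65.4, 94.0 and 80.9 CPM (1.20 ± 0.16, adjusted p = 0.00067). Pygl, a glycogen phosphorylase, rose from 8.04, 9.42 and 8.05 CPM to 22.3, 27.2 and 24.4 CPM (1.53 ± 0.22, adjusted p = 0.00115). Both kept their calls with any 1 library left out, and their groups did not overlap. Ppp1r3b, which brings a phosphatase to glycogen (1.43 ± 0.31, adjusted p = 0.0195), and Pgm1, phosphoglucomutase (0.63 ± 0.12, adjusted p = 0.00817), lost theirs in 4 and 2 of the 6 fits, with adjusted p of up to 0.12 and 0.0548. Of 11 pentose phosphate genes 1 was called, Taldo1, transaldolase (0.62 ± 0.16, adjusted p = 0.049), which lost its call whichever of the 6 libraries was left out (up to 0.17). Pgd, a dehydrogenase of the oxidative branch, had 0.58 ± 0.10, adjusted p = 0.0039, under the fold minimum.

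Genes of iron handling and of the antioxidant response rose, and the lists share Hmox1. Of 14 iron genes 5 were called higher and 0 lower, and of 19 antioxidant and NRF2 target genes 6 were called higher and 0 lower. Hmox1, heme oxygenase 1, which frees iron from heme, rose from 489, 541 and 323 CPM to 1330, 1695 and 1526 CPM (1.75 ± 0.21, adjusted p = 0.000243). Slc40a1, the iron exporter ferroportin, rose from 9.66, 10.3 and 10.6 CPM to 31.6, 72.4 and 53.2 CPM (2.36 ± 0.33, adjusted p = 0.00108). Trf, transferrin, rose from 13.3, 9.71 and 6.65 CPM to 29.4, 30.9 and 26.0 CPM (1.54 ± 0.22, adjusted p = 0.00106). The groups did not overlap in these 3 genes, and the calls held with any 1 library left out. Ftl1, the ferritin light chain, rose from 6204, 4238 and 4768 CPM to 7886, 9945 and 11910 CPM (0.97 ± 0.22, adjusted p = 0.027). Its call was lost without replicate 2 or 3 at either O2 level (adjusted p of up to 0.146), and ferritin chains have processed copies that can share reads. Fth1, the heavy chain, was the fifth iron gene called. Of the 14 iron genes, 3 were called higher without replicate 2 or 3 at either O2 level, and 1 was called lower without replicate 3 in 20% O2.

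In the antioxidant list, Gclm, a subunit of the enzyme that starts glutathione synthesis, rose from 216, 180.1 and 188 CPM to 451, 567 and 485 CPM (1.36 ± 0.14, adjusted p = 6.63e-05). Nqo1, a quinone reductase, rose from 429.7, 266 and 299.9 CPM to 862, 1052 and 1040 CPM (1.57 ± 0.22, adjusted p = 0.00115). Cat, catalase, rose from 349, 242 and 312 CPM to 488, 541 and 639 CPM (0.89 ± 0.16, adjusted p = 0.00664). All 3 had groups that did not overlap and held with any 1 library left out. Srxn1, sulfiredoxin, and Sod3, an extracellular superoxide dismutase, were the others called besides Hmox1.

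Sterol synthesis fell. Of 24 genes of sterol synthesis and uptake, 14 were called lower and 0 higher, with a median log2 fold change of -0.691, and the summed level was 4500, 3770 and 4700 CPM in 20% and 2920, 2320 and 2320 CPM in 1% O2. Hmgcs1, which makes the precursor of mevalonate, fell from 524, 412 and 528 CPM to 258, 211 and 202 CPM (-1.13 ± 0.13, adjusted p = 0.000146). Insig1, a sterol-regulated brake on SREBP, fell from 131, 122 and 173 CPM to 64.5, 53.7 and 55.7 CPM (-1.29 ± 0.15, adjusted p = 0.000232). Idi1, an isomerase of the isoprenoid steps, fell from 407, 313 and 381 CPM to 214, 153 and 161 CPM (-1.06 ± 0.17, adjusted p = 0.00278). These 3 genes were lower in every 1% library than in any 20% library, and the calls held with any 1 library left out. Other called members included Mvk, Mvd, Fdft1, Sqle, Lss, Cyp51, Hsd17b7, Dhcr7 and Stard4, from the mevalonate steps to the late steps of synthesis. The number called was 7 without replicate 2 and 6 without replicate 3 in 1% O2, and 9 without replicate 1 and 7 without replicate 3 in 20% O2, with medians of -0.784 to -0.606 over the 6 fits. It was 3 when only the gesicle-treated libraries were fitted, with a median of -0.695.

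**Figure D3:**
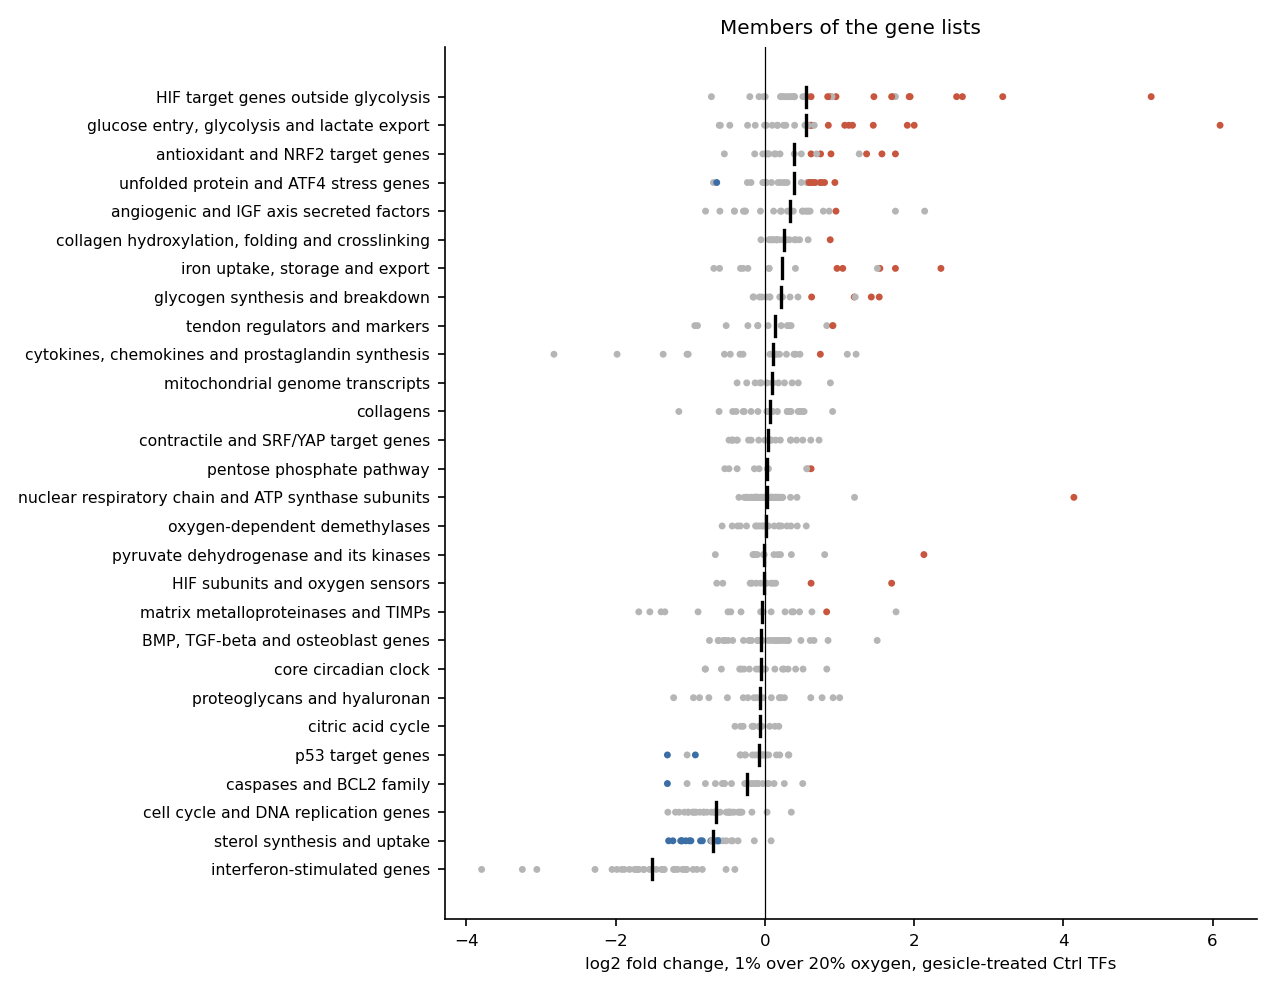
Each point is a gene of the list named on the y axis at its log2 fold change of 1% over 20% O2 in gesicle-treated TFs, with called genes in colour, the others in grey and a bar at the median. The median of the sterol list lies to the left of 0 with 14 called genes, those of glycolysis and the other HIF targets to the right with 10 and 12, and the 33 interferon-stimulated genes all lie below 0 without a call.

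Genes of the unfolded protein response and of ATF4 rose by small amounts. Of 24, 8 were called higher and 1 lower, with a median of 0.393. Herpud1, which helps to dispose of misfolded proteins, rose from 196, 127 and 153 CPM to 262, 318 and 331 CPM (0.94 ± 0.18, adjusted p = 0.00918). The chaperone Hsp90b1 (0.64 ± 0.14, adjusted p = 0.0248), the disulfide isomerase Pdia4 (0.59 ± 0.13, adjusted p = 0.0175) and the folding factor Creld2 (0.67 ± 0.14, adjusted p = 0.0158) rose as well, and Calr, Manf, Sdf2l1 and Chac1 were also called higher. Phgdh, of serine synthesis, fell. The number called higher depended on which library was left out. It was 0 without replicate 2 in 20% or replicate 3 in 1% O2, and 1 without replicate 3 in 20% or replicate 2 in 1% O2. It was 6 without replicate 1 in 20% and 10 without replicate 1 in 1% O2. The median stayed at 0.312 to 0.534 over these fits.

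At the 2.41% called over all genes tested, lists of this size would hold few calls, and few genes of tendon matrix were called. Of 22 collagens 0 were, with a median of 0.0752, and their summed level overlapped, at 15100, 18800 and 22400 CPM in 20% and 19600, 23800 and 12000 CPM in 1% O2. Col6a1 (0.45 ± 0.22, adjusted p = 0.305) and Col6a2 (0.50 ± 0.25, adjusted p = 0.319), chains of collagen VI, are given as the members with the smallest p. P4ha1 was the 1 called gene of 22 in collagen hydroxylation, folding and crosslinking, of which 21 had a log2 fold change above 0. P3h3, a prolyl 3-hydroxylase family member, was at 0.47 ± 0.12, adjusted p = 0.0531. Of 18 measured of 21 proteoglycan and hyaluronan genes 0 were called. Aspn, asporin, was at 329, 188 and 347 CPM in 20% and 579, 417 and 737 CPM in 1% O2 (1.00 ± 0.30, adjusted p = 0.0861), and Prelp, another small leucine-rich proteoglycan, was at 1829, 1409 and 1969 CPM in 20% and 2336, 2757 and 2888 CPM in 1% O2 (0.62 ± 0.17, adjusted p = 0.0674). Both were higher in every 1% library than in any 20% library, as were 13% of all genes tested, without passing the test.

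Among 14 tendon regulators and markers, the serine protease Htra3 rose from 20.7, 15.1 and 17.9 CPM to 29.2, 35.4 and 36.3 CPM (0.91 ± 0.23, adjusted p = 0.0428) and lost its call whichever of the 6 libraries was left out (up to 0.204). Fmod, the tendon proteoglycan fibromodulin, was at 805, 539 and 450.2 CPM in 20% and 1219, 1109 and 1053 CPM in 1% O2 (0.91 ± 0.28, adjusted p = 0.0957). Of 18 metalloproteinases and TIMPs, Mmp19 rose from 24.3, 31.1 and 32.6 CPM to 59.1, 52.6 and 44.7 CPM (0.83 ± 0.18, adjusted p = 0.024), and lost its call in all fits but the one without replicate 3 in 1% O2 (up to 0.0867). Timp4, an inhibitor of metalloproteinases, had 1.76 ± 0.47, adjusted p = 0.0553. Of 20 contractile genes 0 were called, with tropomyosin Tpm1 at -0.44 ± 0.13, adjusted p = 0.0875 and leiomodin Lmod1 at 0.51 ± 0.21, adjusted p = 0.212. Of 36 measured of 37 BMP, TGF-beta and osteoblast genes 0 were called, with the BMP antagonist Grem1 at 0.85 ± 0.32, adjusted p = 0.172 and the signal transducer Smad2 at -0.29 ± 0.10, adjusted p = 0.132.

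Of 26 angiogenic and IGF axis factors 1 was called. Adm, the vasodilator adrenomedullin, rose from 326, 298 and 463 CPM to 612, 593 and 901 CPM (0.95 ± 0.22, adjusted p = 0.027), and lost its call without replicate 1 or 2 in 20% or replicate 3 in 1% O2 (up to 0.146). Angptl4, an inhibitor of lipoprotein lipase, was at 13.8, 24.3 and 10.6 CPM in 20% and 46.3, 68.2 and 49.4 CPM in 1% O2 (1.75 ± 0.49, adjusted p = 0.0677), without overlap. Of 20 measured of 24 cytokine, chemokine and prostaglandin genes, Ptges, a prostaglandin E synthase, was called higher (0.74 ± 0.18, adjusted p = 0.0342) and lost its call in all fits but the one without replicate 1 in 20% O2 (up to 0.17). The chemokine Cxcl1 had 1.11 ± 0.36, adjusted p = 0.119.

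Cell cycle genes had lower fitted levels in 1% O2 without a call by edgeR. Of 34, 0 were called by edgeR and 2 were called lower by DESeq2, 32 had a log2 fold change below 0 and the median was -0.654, with summed levels of 1640, 2060 and 1180 CPM in 20% and 1580, 1110 and 894 CPM in 1% O2 that overlapped. Cdc20, an activator of the anaphase-promoting complex, was at 48.7, 79.2 and 33.5 CPM in 20% and 30.2, 21.7 and 13.6 CPM in 1% O2 (-1.3 ± 0.38, adjusted p = 0.083). E2f1, a transcription factor of S phase entry, had 0.36 ± 0.10, adjusted p = 0.0806. The median ran from -1.18 without replicate 1 in 1% O2 to -0.358 without replicate 2 in 20% O2.

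Of 22 p53 target genes 2 fell. Pmaip1 (Noxa), a pro-apoptotic member of the BCL2 family, fell from 48.6, 42.4 and 52.2 CPM to 20.7, 18 and 19.2 CPM (-1.31 ± 0.23, adjusted p = 0.00602), without overlap, and held with any 1 library left out. It was also the 1 called gene of 23 measured of 25 caspases and BCL2 family members. Plk2, a kinase, fell from 313, 362 and 338 CPM to 187, 176 and 168 CPM (-0.93 ± 0.20, adjusted p = 0.018), and lost its call without replicate 2 or 3 at either O2 level (up to 0.0896). Of 19 clock genes 0 were called, with Ciart at -0.58 ± 0.16, adjusted p = 0.0628 and Bhlhe41 at -0.80 ± 0.29, adjusted p = 0.151. Of 21 oxygen-dependent demethylases 0 were called, with the RNA demethylase Alkbh5 at 0.56 ± 0.09, adjusted p = 0.00456, under the fold minimum, and the DNA demethylase Tet2 at -0.57 ± 0.25, adjusted p = 0.24.

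The largest falls were in single genes of adhesion, signalling and metabolism. Pi16, a peptidase inhibitor made by fibroblasts, fell from 70.8, 46.8 and 78.5 CPM to 17.2, 10.5 and 10.1 CPM (-2.38 ± 0.35, adjusted p = 0.00146). Pde9a, a cGMP phosphodiesterase, fell from 19.9, 12.6 and 21.9 CPM to 4.53, 2.56 and 3.22 CPM (-2.40 ± 0.29, adjusted p = 0.000243). Cldn1, the tight junction protein claudin 1, fell from 2.34, 4.17 and 4.10 CPM to 0.465, 0.615 and 0.361 CPM (-2.88 ± 0.51, adjusted p = 0.00623). In each of these every 1% library lay below every 20% library, and the call held with any 1 library left out. Itga6, a laminin-binding integrin subunit, fell from 27.9, 59.5 and 27.5 CPM to 8.54, 10.8 and 3.31 CPM (-2.34 ± 0.52, adjusted p = 0.0248), and lost its call without replicate 2 in 20% or replicate 1 or 3 in 1% O2 (up to 0.134).

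The cytochrome P450 gene Cyp3a13 (-2.26 ± 0.45, adjusted p = 0.0124), the keratin gene Krt84 (-2.20 ± 0.44, adjusted p = 0.0136) and the acyl-CoA synthetase gene Acsbg1 (-2.11 ± 0.47, adjusted p = 0.0248) lost their calls in 2, 3 and 4 of the 6 fits. Anks1b (-2.61 ± 0.52, adjusted p = 0.0136) and Fam180a (-2.14 ± 0.53, adjusted p = 0.0415) lost theirs in 3 and 5. The adjusted p reached 0.0687, 0.0712, 0.12, 0.0731 and 0.164 in the same order. Ifit1bl1, of the interferon-induced Ifit family, fell from 8.64, 33.6 and 3.41 CPM to 2.96, 1.65 and 2.38 CPM (-2.70 ± 0.69, adjusted p = 0.0474). It lost its call in 4 fits, among them the one without replicate 2 in 1% O2, and its log2 fold change was -1.37 at the smallest.

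Interferon-stimulated genes varied widely between libraries of one group. Of 33, 0 were called, all 33 had a log2 fold change below 0 and the median was -1.52. Tap1, a peptide transporter of antigen presentation, was at 80.4, 117 and 74.8 CPM in 20% and 58.8, 31.7 and 49.4 CPM in 1% O2 (-0.96 ± 0.28, adjusted p = 0.0822). Ifit2, an interferon-induced antiviral gene, was at 119.9, 330.3 and 136 CPM in 20% and 108, 65.0 and 87.6 CPM in 1% O2 (-1.17 ± 0.35, adjusted p = 0.0881). Both were lower in every 1% library than in any 20% library, as were 11% of all genes tested. Without replicate 2 in 1% O2, 32 of 33 were below 0, the median was -1.01, 0 were called and the lowest adjusted p was 0.267. The mean summed level in 1% O2 was 0.356 times that in 20% O2 with all libraries and 0.504 times without that library. In Ctrl TFs without gesicles the sum was 1300, 2110 and 423 CPM in 20% and 316, 1090 and 395 CPM in 1% O2, and in cKO TFs 481, 374 and 360 and 624, 1710 and 424 CPM. In 1% O2, replicate 2 was thus the highest of its group in both arms without gesicles and the lowest in gesicle-treated TFs. With DESeq2, 4 of the 33 were called lower, and with limma voom 5.

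**Figure D4:**
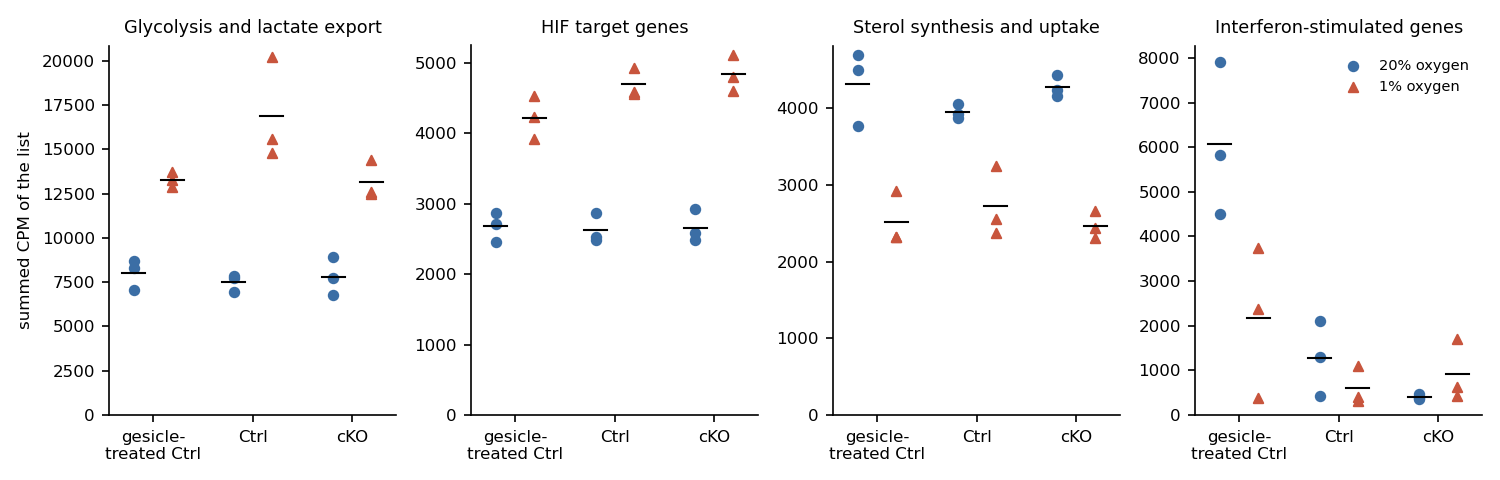
Summed normalised CPM of 4 gene lists in each of the 18 libraries, by arm and O2 level, with a bar at the mean of 3 libraries. Glycolysis, other HIF targets and sterol genes separate by O2 in every arm, and interferon-stimulated genes are highest in gesicle-treated TFs except for 1 library in 1% O2 at 374 CPM.

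Whether gesicle-treated TFs responded to low oxygen differently from the other TFs was tested as the difference between responses. Against Ctrl TFs without gesicles, edgeR called 0 of 16174 genes (0%) at the same thresholds, with 200 past the fold minimum at an unadjusted p under 0.05. Against cKO TFs it called 0 (0%), with 251 at an unadjusted p under 0.05. DESeq2 called 0 in both, and limma voom called 1 against cKO TFs. The median standard error of a difference was 0.335 and 0.337 on the log2 scale. In the same fit Ctrl TFs without gesicles had 325 genes called higher (2.01%) and 109 lower (0.674%) in 1% O2, and cKO TFs had 314 higher (1.94%) and 173 lower (1.07%).

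Of the 266 genes called higher in gesicle-treated TFs, 175 were also called higher in Ctrl TFs without gesicles, 65.8% of the first list and 53.8% of the second, and 264 had the same sign there. Of the 124 called lower, 47 were shared, 37.9% and 43.1% of the lists, and 123 had the same sign. With cKO TFs, 171 of the higher genes (64.3% and 54.5%) and 66 of the lower (53.2% and 38.2%) were shared, and 266 and 117 had the same sign. No gene called in gesicle-treated TFs was called in the opposite direction in either other arm. By Xist and Ddx3y, replicate 1 was male and replicates 2 and 3 female in both Ctrl arms, and the reverse held in cKO TFs. Whether the arms share mice is not given in the labels, and all arms share 1 estimate of spread. The overlaps are therefore not independent replication, and the comparison with cKO TFs also differs in sex. Across all 16174 genes, Pearson's r between the log2 fold changes was 0.596 with Ctrl TFs without gesicles and 0.591 with cKO TFs, as a description, since genes are not independent replicates.

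**Figure D5:**
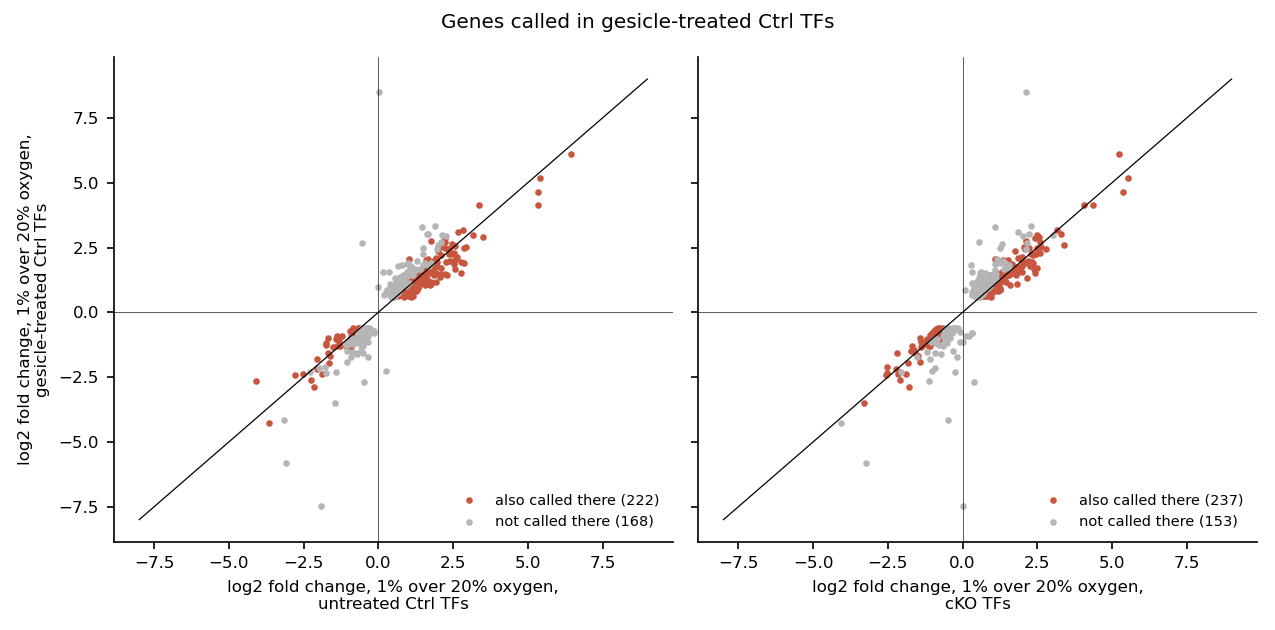
Log2 fold change of 1% over 20% O2 in gesicle-treated TFs (y axis) against that in Ctrl TFs without gesicles (left) and in cKO TFs (right), for the 390 genes called in gesicle-treated TFs, with those also called in the other arm (222 and 237) in colour and a line at equal responses. The genes were chosen on the y axis, which favours larger values there, and nearly all lie on the same side of 0 in both arms.

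Glycolytic genes had smaller fitted rises in gesicle-treated TFs than in Ctrl TFs without gesicles, with no difference called. The median log2 fold change of the list was 0.547, against 0.941 in Ctrl and 0.517 in cKO TFs, and 10, 15 and 12 genes were called higher. The median difference from Ctrl TFs over the list was -0.337, against -0.00958 over all genes. Pfkl differed from Ctrl TFs by -0.56 (-0.90 to -0.21), with the 95% interval in brackets, an unadjusted p = 0.00334 and an edgeR adjusted p = 1. The difference was -0.58 (-1.08 to -0.08) for Ldha, -0.42 (-0.71 to -0.14) for P4ha1 and -0.42 (-0.78 to -0.06) for Egln1, each with an adjusted p = 1. Slc16a3 at -0.33 (-1.06 to 0.39), Pdk1 at -0.50 (-1.05 to 0.04) and Aldoa at -0.38 (-0.85 to 0.08) had intervals that spanned 0. From cKO TFs, Pfkl differed by 0.03 (-0.31 to 0.37) and Slc16a3 by 0.85 (0.14 to 1.57), also with an adjusted p = 1.

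Sterol genes had medians of -0.691 in gesicle-treated, -0.436 in Ctrl and -0.812 in cKO TFs, with 14, 6 and 15 called lower. Genes of the unfolded protein response had medians of 0.393, 0.137 and 0.388, with 8, 0 and 6 called higher, and Herpud1 differed from Ctrl TFs by 0.47 (-0.06 to 0.99). Cell cycle genes had medians of -0.654, -0.00357 and -0.533. Differences between these list counts were not tested.

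The genes with the smallest p for a difference between responses were not called. Against Ctrl TFs without gesicles they were Cyp3a13 (-2.51 (-3.82 to -1.19)), the long noncoding RNA Gm16001 (1.5 (0.69 to 2.30)) and the pseudogene Gm8226 described above. Against cKO TFs they were the pseudogene Gm3379 (2.6 (1.43 to 3.76)), Ifit2 (-2.01 (-3.07 to -0.96)) and the class I antigen gene H2-K1 (-1.06 (-1.62 to -0.50)). Each had an adjusted p = 1. Gm3379 and H2-K1 have close copies that can share their reads, and Ifit2 is one of the interferon-stimulated genes that were lowest in replicate 2 in 1% O2.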

How the data were processed

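Poly-A RNA was sequenced in paired ends in 18 libraries. The deposited table held estimated counts per gene, which per the study's methods the authors made with Cutadapt, STAR on GRCm38 and RSEM 1.3.3, not normalised, as whole numbers for 55491 rows. Its 4 transgene rows were not removed, and the filter on low counts kept them out of the main fit. Those with a count entered the alternative without that filter. All 18 libraries entered 1 fit with 1 coefficient per group (edgeR 4.0.16, R 4.3.3, filterByExpr, TMM, quasi-likelihood F test, Benjamini-Hochberg adjustment over 16174 genes). Genes were called at a minimum change of 1.5-fold with an adjusted p below 0.05. Differences between responses were contrasts of the same fit. The script was tested on simulated data. The study's methods name DESeq2 with a paired design, with Ctrl against cKO as the example, and name no pairing factor. The main fit here has no block and so departs from that. DESeq2 (1.42.0) was run as an alternative without and with a replicate block. Other alternatives were limma voom (3.58.1), other normalisation and filters, an edgeR replicate block, thinned counts and each gesicle-treated library left out. Positions and gene types were from GENCODE M21, for 16153 of the genes.

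The genes given with values were Hif1a, its partners and sensors, the study's qPCR genes, the 10 largest called rises and falls with groups that do not overlap and at least 1 CPM, up to 4 called genes (or the 2 with the smallest p) of each list, and the 3 genes with the smallest p for each difference. Other list members are named because they were called. Some results that fall under this rule are not reported here. The members, lists and markers were chosen with earlier results of these data known.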

Additional observations from a re-analysis of the deposited data

Results flagged for a closer look

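The table of counts has rows for transgenes that enter no comparison above. The tdTomato row summed to 8 counts over the 6 gesicle-treated libraries, with counts in 5 of them and at most 3 in any 1, and it was at 0 in the 12 libraries without gesicles. No gesicle-treated library was above the 3 counts that a count of 0 allows. The Cre and mCherry rows were at 0 in all 6 gesicle-treated libraries.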

How the results depend on the processing

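The number of genes called between 1% and 20% O2 in gesicle-treated TFs, 390, was 120 when only the 6 gesicle-treated libraries were fitted, 732 with DESeq2, 746 with limma voom and 62 when tested against a fold change of 1.5. It ran from 148 to 346 with 1 gesicle-treated library left out. In an alternative chosen after seeing the data, without the low-oxygen replicate 2 library of both Ctrl arms, in which interferon-stimulated genes stood apart, it was 143, with 4 sterol genes called. It was 391 with RLE size factors, 396 without a filter on low counts, and 493 without the shallow cKO library, also chosen after seeing the data. The share of called genes that were higher was 68.2% and 66.8% with RLE. Of the 390, 107 were called when only these libraries were fitted and 380 with DESeq2.

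Replicate numbers are shared between the groups, and the sex of same-numbered libraries matched at both O2 levels, but the labels do not say that a number marks a mouse or a day. Deviations of same-numbered libraries correlated with a mean of 0.0839 (-0.00612 to 0.216), and those of differently numbered ones with -0.0417 (-0.285 to 0.243). These ranges overlap and do not settle a pairing, and the sex does not exclude one. Lists, picked after their values were seen, differed. BMP, TGF-beta and osteoblast genes summed to 2580, 4090 and 2260 CPM in 20% and 2950, 4740 and 2350 CPM in 1% O2, in order of replicate. Collagen sums did not keep their order. The main fit has no pairing. With a replicate block edgeR called 472 genes, DESeq2 called 1009, and a blocked fit of only the gesicle-treated libraries called 19. Under the edgeR block Ccn3, Aspn, Fmod, Grem1, Angptl4 and Cdc20 gained a call and Gm8226, Ifit1bl1, Taldo1 and Htra3 lost theirs. Of 34 cell cycle genes, 2 were called lower under that block and 12 under the DESeq2 block, and of 24 sterol genes 14, 17 and, with only the gesicle-treated libraries blocked, 0.

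The difference from Ctrl TFs without gesicles had 1 called gene when only the groups compared were fitted (Gm8226) and 1 with DESeq2 and a replicate block (Chad). The difference from cKO TFs had 1 with limma voom (Gm18853, at 25, 23 and 38 counts in gesicle-treated TFs in 20% O2 and 0 in 1% O2). These genes were named after their values were seen. Hif1a kept its direction without a call in all alternatives. Of the 55 named genes that were called, 9 kept the call in all 20 alternatives, 46 lost it in at least 1 and 0 changed direction. Of the 37 not called, 18 gained a call in at least 1, among them Prelp, Timp4, Cxcl1, Tap1 and Ifit2 with DESeq2, and 1 changed direction. Hif1an ranged from -0.511 with 1 library left out to a changed sign, at 0.0796 and 0.0708 without replicate 3 in 20% and in 1% O2, with adjusted p of 0.965 and 0.971. The causes were not tested. With 3 libraries per group and lower depth in 1% O2, changes in genes near 3 counts were not detectable.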
